A study of Mus musculus with 40 samples.

Results

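The interaction between loss of the nuclear lamins and loss of the lamin B receptor (LBR) was measured in the RNA of naive mouse embryonic stem (mES) cells. It compares the change in quadruple knockout (QKO) cells, which lack the lamins and LBR, with what the LBRKO and the lamin triple knockout (TKO) changes add up to on the log2 scale, each change taken against wild type (WT). A value of 0 means that the QKO change equals the sum of the single changes, and a value of 1 means that QKO RNA is 2-fold above the level that sum gives. All 20 naive mES libraries of the 40 in the series entered the value, and it was tested for 23399 genes and 1142 families of transposable elements (TEs). A gene or family was called where its adjusted p (edgeR quasi-likelihood test with Benjamini-Hochberg adjustment) was under 0.05 and its value over 2-fold.

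The lamina is a meshwork of A-type and B-type lamins under the inner nuclear membrane, and LBR is a membrane protein of the same envelope with a tail that binds B-type lamins and heterochromatin proteins and a membrane part with sterol reductase activity. Lamins and LBR are known as tethers that hold heterochromatin at the nuclear edge. Chromatin in contact with the lamina is poor in genes, is marked by H3K9 methylation and holds many silent TEs, among them LINE-1 elements and endogenous retroviruses (ERVs), which are flanked by long terminal repeats (LTRs).

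WT and TKO cells are XY lines from littermate embryos, and in TKO cells *Lmna*, *Lmnb1* and *Lmnb2* are deleted. LBRKO cells carry a frameshift in *Lbr* made in WT cells, where the clone behind each library is not labelled, and QKO cells are 1 clone in which *Lbr* was disrupted in TKO cells. All were grown without feeders in 2i + LIF, which holds the naive state by inhibiting MEK and GSK3, and every library came from its own well, so that p-values measure spread between wells of a line and not between lines. Some WT cells carried a gain of chromosomes 6 and 8 or lacked the Y chromosome, and TKO cells carried a gain of chromosome 8, in part with loss of the Y chromosome. Since the interaction equals the QKO minus TKO difference less the LBRKO minus WT difference, a difference between the TKO and WT lines that is the same with and without LBR drops out, whereas a difference particular to the QKO clone or to an LBRKO clone cannot be told apart from the interaction. The authors list a frameshift and an in-frame deletion of *Lbr* in the QKO clone, and frameshift deletions in an LBRKO clone.

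Gene counts per library were 27.7 to 33.1 M in WT replicates 1 to 4 and 39.4 to 46.6 M in WT replicates 5 to 8. They were 39.7 to 48.0 M in LBRKO, 27.1 to 33.6 M in TKO and 24.5 to 30.6 M in QKO. Between these sets of WT libraries 358 genes were higher and 521 lower in replicates 5 to 8, together 3.76% of those tested, so values are also given with each WT set alone; with WT replicates 5 to 8, LBRKO is set against WT, and QKO against TKO, at like depth. The libraries held the marks of naive cells, since the summed level of 14 naive genes ran from 5420 to 6130 CPM (counts scaled to a common library total) in WT, from 4740 to 5710 in LBRKO, from 6080 to 6340 in TKO and from 6330 to 6540 in QKO. Below, errors of log2 values are standard errors (SE), errors of CPM are standard deviations (SD), n is 8 for WT and 4 for each mutant, and in these bulk samples fewer cells that express a gene and less RNA per cell cannot be told apart.

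The targeted genes followed their labels as far as RNA can show. *Lmnb1* lay between 481 and 546 CPM in WT and between 499 and 544 in LBRKO, against 8.26 to 8.82 in TKO and 12.0 to 15.5 in QKO. *Lmnb2* fell from a WT median of 108 CPM to 3.96 to 4.71 in TKO and 2.11 to 3.77 in QKO, and *Lmna* from 55.8 CPM to 14.1 to 17.0 and 17.1 to 21.0. *Lbr* RNA, which a frameshift need not remove, was at 347 to 407 CPM in WT and 333 to 373 in TKO, against 274, 253, 145 and 162 in LBRKO replicates 1 to 4 and 236 to 239 in QKO, so the LBRKO libraries fall into a higher and a lower pair. None of the 4 targeted genes had a called interaction (7.5% of all genes did), with values from -0.81 (SE 0.17) for *Lmnb2* to 0.67 (SE 0.10) for *Lmnb1*.

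Most changes in QKO cells did not pass the interaction test, and those that did went both ways. Of the genes tested, 1755 (7.5%) had a called interaction, 959 above 0 (4.1%) and 796 below 0 (3.4%), and another 2362 passed the adjusted p within 2-fold. Against WT, 716 genes rose (3.06%) and 761 fell (3.25%) in LBRKO, 628 rose (2.68%) and 881 fell (3.77%) in TKO, and 2478 rose (10.6%) and 1558 fell (6.66%) in QKO. Of the genes that rose, 1824 were not called in the same direction in either LBRKO or TKO, and the interaction was called for 332 of these (18.2%). Of the genes that fell, 848 were not called in the same direction in either, and the interaction was called for 310 of them (36.6%). The genes that rose in QKO had a median change of 1.49 where the single changes added up to 0.83. Those that fell had a median of -1.70 against -0.97. A QKO change beyond the sum is favoured here, since these genes were chosen by their QKO change.

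The called genes fall into synergy, buffering and opposed single effects. Synergy means that QKO changed against WT by more than the sum of the single changes, and held 356 genes that were higher and 408 that were lower in QKO. Buffering means that the QKO change was smaller than the sum while at least 1 single mutant had changed, and held 117 genes where the single changes added up to a rise and 328 where they added up to a fall. Opposed genes changed in opposite directions in LBRKO and TKO, with 65 interactions above 0 and 40 below. The other 441 met no definition, 193 because the QKO change did not pass the test and 248 because no single change did. With WT replicates 1 to 4 alone 4.26% of genes tested were called above 0 and 3.85% below, with WT replicates 5 to 8 alone 4.31% and 4.01%. Of the 1755 genes 1170 were called with both sets, and 836 kept their class in both.

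**Figure D1:**
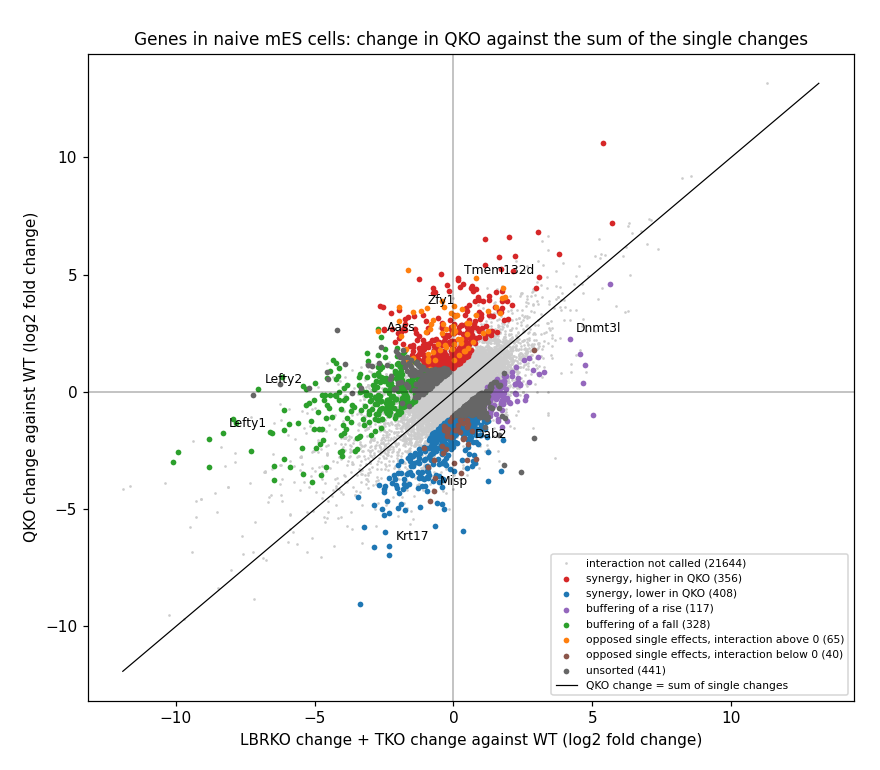
Change against WT in QKO (vertical) plotted against the sum of the LBRKO and TKO changes (horizontal) for each gene, both as log2 fold change, coloured by class with the number of genes in the legend. Points on the diagonal have an interaction of 0; the 356 red genes lie above it with QKO raised, the 408 blue genes below it with QKO lowered, and the 328 green genes lie left of 0 and above the diagonal.

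The synergy class with higher QKO RNA held genes of low level, with a median of 2.16 CPM in their highest group, and in 91 of them at least 1 group mean was under 0.1 CPM. Of the 356 genes, 241 had changed in neither single mutant, 68 in TKO alone, 45 in LBRKO alone and 2 in both. Median changes were -0.63 in LBRKO, 0.57 in TKO and 1.95 in QKO. The definition itself favours a negative LBRKO or TKO change, since the interaction subtracts both. Against TKO directly, QKO was called higher in 247, beside 4.09% of all genes tested. The choice of these genes by their QKO level favours that count too. Protein-coding genes made up 55.9% of the class and long non-coding RNAs 22.2%, against 66.1% and 13.9% of all genes tested. With each WT set alone 201 of the 356 were called, and 158 stayed in the class.

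*Tmem132d*, which encodes a membrane-spanning protein and lies at chr5:127858694-128510141 in GRCm39, shows the pattern in each library. WT libraries ran from 0.0724 to 1.09 CPM with a median of 0.579, the LBRKO libraries were at 0.383, 0.437, 0.191 and 0.426, the TKO libraries at 0.892, 1.18, 1.00 and 1.5, and the QKO libraries at 16.1, 16.5, 16.4 and 17.0 CPM. The QKO libraries stood apart from all others, which overlapped each other except that no LBRKO library reached a TKO library. Its interaction was 4.60 (SE 0.51, edgeR adjusted p = 3.86e-09), but 2.92 and 5.29 with the first and the second WT set. *Kdm5d*, a demethylase of H3K4 on the Y chromosome (chrY:897788-956786), was at 0.208 to 0.686 CPM in WT, at 0.256, 0.299, 0.255 and 0.225 in LBRKO and at 1.75, 2.11, 1.83 and 1.10 in TKO. In QKO it reached 18.7, 19.3, 17.8 and 21.3 CPM, an interaction of 4.29 (SE 0.35, edgeR adjusted p = 1.06e-12). Here TKO was already above every WT library and QKO far above TKO. Some WT and TKO cells lacked the Y chromosome, and the part of that loss in these levels was not tested.

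The other 4 genes named for the class differ in how the single mutants behaved. *Stk33*, a serine/threonine kinase, and *Platr15*, a non-coding RNA, rose in TKO already, by 2.80 (SE 0.61) and 2.89 (SE 0.36), and further in QKO to 6.76 to 8.45 and 19.7 to 27.8 CPM. *Adam32*, of the ADAM family of membrane proteins, had a TKO change of -0.25 (SE 0.31), fell in LBRKO by 1.64 (SE 0.34) and rose in QKO by 2.54 (SE 0.28). *Obox6*, a homeobox gene of oocytes from a multigene family whose members can share reads, fell in LBRKO by 2.49 (SE 0.23) and rose in QKO by 1.78 (SE 0.18). *Adam32* with the first WT set, and *Obox6* with the second, counted as buffering of a fall. The single changes then added up to a fall larger in size than the QKO rise. Each of the 4 interactions stayed called with either WT set.

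The synergy class with lower QKO RNA held genes with a median of 6.61 CPM in their highest group, and in 51 of them the QKO mean was under 0.1 CPM. Of the 408 genes, 267 had changed in neither single mutant, 100 in TKO alone, 39 in LBRKO alone and 2 in both. Median changes were 0.42 in LBRKO, -0.64 in TKO and -1.82 in QKO, where a positive LBRKO change is likewise favoured by the definition. QKO was called lower than TKO in 264, beside 2.12% of all genes, a count that the choice by QKO level favours. Protein-coding genes made up 92.4% of the class. With each WT set alone 329 were called, and 281 stayed in the class.

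*Krt17*, a type I keratin of epithelial intermediate filaments (chr11:100147043-100151855), had the largest fall in this class among the genes named. WT libraries ran from 6.85 to 13.8 CPM with a median of 9.58, and LBRKO libraries, at 6.82, 7.20, 6.73 and 7.11, overlapped them. TKO libraries were lower, at 2.44, 2.75, 2.53 and 3.11, and QKO libraries lower still, at 0.0975, 0.0766, 0.0785 and 0.137 CPM, with no overlap between TKO and QKO. The interaction was -4.26 (SE 0.40, edgeR adjusted p = 4.43e-11), and -4.0 and -4.56 with the first and the second WT set.

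*Crb3*, a Crumbs protein of apical polarity (chr17:57366105-57372918), had changes of 0.80 (SE 0.10) in LBRKO, -1.17 (SE 0.11) in TKO and -3.74 (SE 0.14) in QKO. It was at 10.9 to 15.6 CPM in WT, 20.9 to 23.7 in LBRKO, 4.82 to 6.71 in TKO and 0.668 to 1.14 in QKO, with no overlap between any of the 4 groups. Its interaction was -3.37 (SE 0.18, edgeR adjusted p = 1.1e-17). *Zfp467*, a zinc finger gene, was likewise separate in all groups, at 12.1 to 16.0 CPM in LBRKO against 0.432 to 0.877 in QKO. *Tgfbi*, a matrix protein induced by TGF-beta, had changes of 0.27 (SE 0.16) in LBRKO and -0.24 (SE 0.17) in TKO and fell in QKO by 3.39 (SE 0.22). *Plxdc1*, a membrane protein with a plexin domain, fell in QKO by 3.86 (SE 0.28), after changes of 0.60 (SE 0.20) in LBRKO and -1.13 (SE 0.22) in TKO.

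**Figure D2:**
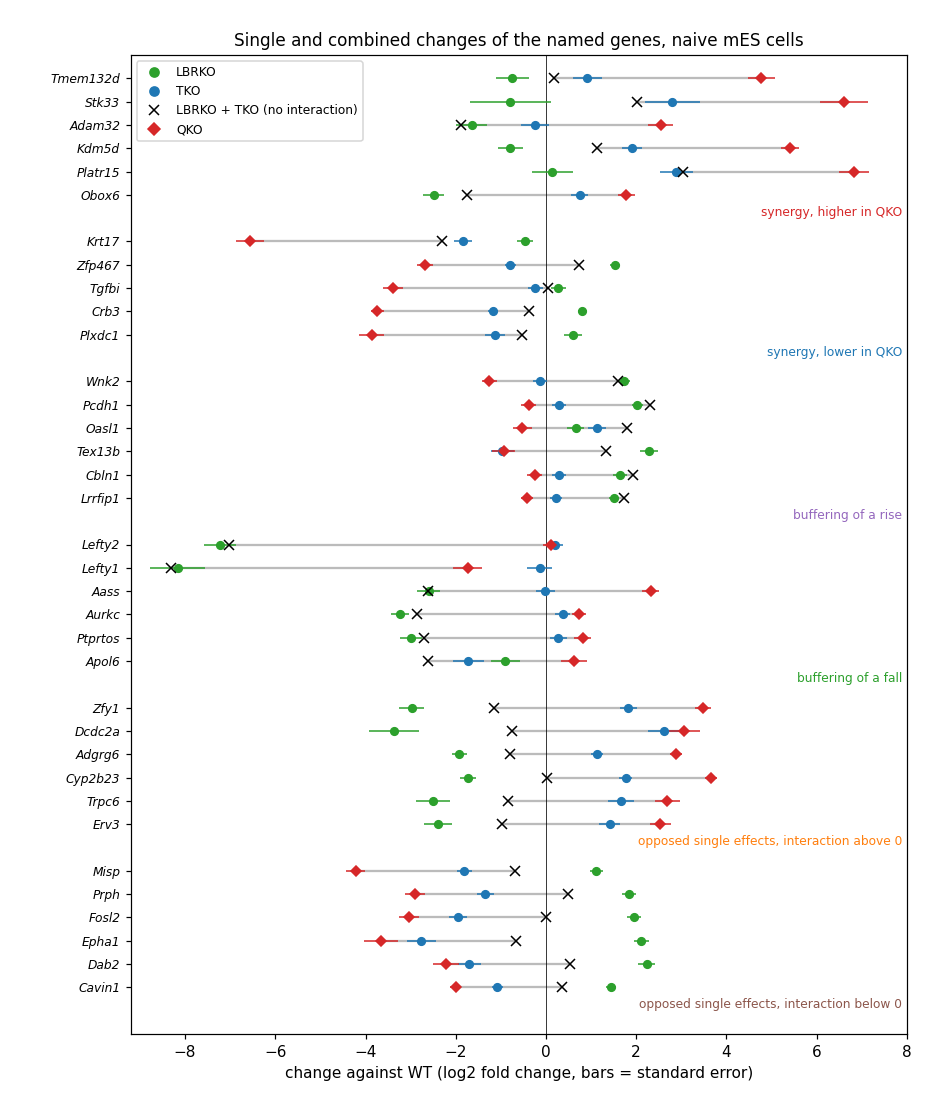
Log2 fold change against WT in LBRKO (green), TKO (blue) and QKO (red diamonds) for the 5 or 6 genes shown in each class, with SE bars; the cross marks the sum of the LBRKO and TKO changes and the grey line joins it to the QKO change. The line is the interaction: it runs right in the classes with an interaction above 0, as for *Tmem132d* (4.60), and left in those below 0, as for *Krt17* (-4.26).

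Buffering was for the most part a change in LBRKO cells that was not there when the lamins were also missing. Of the 328 genes in which a fall was buffered, 206 had fallen in LBRKO alone, 58 in TKO alone and 64 in both. Median changes were -1.55 in LBRKO, -0.60 in TKO and 0.03 in QKO. In 84 of these genes the LBRKO mean was under 0.1 CPM, so that their fold rests on few reads. In 26 genes the QKO change was itself a called rise, smaller than the fall expected from the sum. With each WT set alone 237 were called and 165 kept the class.

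*Lefty1* and *Lefty2*, which encode secreted antagonists of the TGF-beta family ligand Nodal and lie side by side at chr1:180762587-180765965 and chr1:180720673-180726668, had the largest interactions above 0 of the genes named for the classes. *Lefty2* ran from 10.8 to 35.1 CPM in WT with a median of 21.1, and was at 0.128, 0.115, 0.191 and 0.150 in LBRKO. It was at 26.8, 24.4, 24.8 and 26.9 CPM in TKO and at 26.0, 20.6, 24.9 and 25.5 in QKO. The LBRKO libraries stood far below every other library, and QKO overlapped both TKO and WT. The interaction was 7.14 (SE 0.43, edgeR adjusted p = 3e-16), or 7.64 and 6.41 with the first and the second WT set. *Lefty1* was at 8.29 to 35.6 CPM in WT, at 0.0639, 0.0920, 0.0849 and 0.0250 in LBRKO, at 18.5, 17.3, 17.1 and 20.9 in TKO and at 5.78, 6.86, 6.13 and 5.66 in QKO. QKO lay below every WT and TKO library and far above LBRKO, with an interaction of 6.57 (SE 0.81, edgeR adjusted p = 3.43e-08), or 7.18 and 5.53 with each WT set. For both genes WT replicates 1 to 4 were above WT replicates 5 to 8, as the plot of the 4 genes by library shows.

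**Figure D3:**
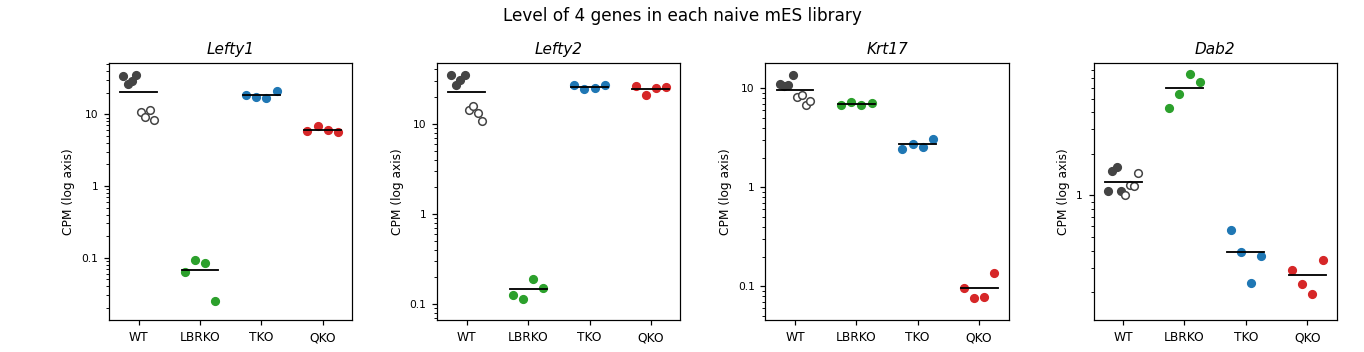
CPM (log axis) of *Lefty1*, *Lefty2*, *Krt17* and *Dab2* in each naive mES library; filled WT points are replicates 1 to 4, open WT points replicates 5 to 8, and lines are group means. LBRKO is lowest for both *Lefty* genes, while QKO overlaps WT and TKO for *Lefty2* and lies between LBRKO and them for *Lefty1*, QKO alone is near 0 for *Krt17*, and *Dab2* is above WT in LBRKO but below WT in TKO and QKO.

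The same shape, low in LBRKO and not in QKO, recurred in genes of unrelated roles. *Aurkc*, the Aurora kinase of meiosis (chr7:6998299-7006090), was at 5.32 to 11.2 CPM in WT, 0.651 to 1.08 in LBRKO, 9.52 to 11.8 in TKO and 13.4 to 15.2 in QKO. *Ptprtos*, a non-coding RNA antisense to *Ptprt*, was at 3.36 to 6.44, 0.437 to 0.876, 4.83 to 6.31 and 7.58 to 9.81 CPM in the same order, and without a known strand setting its reads cannot be parted from those of its partner. *Aass*, an enzyme of lysine breakdown on chromosome 6, went further: it was at 2.21 to 5.25 CPM in WT and 0.340 to 0.626 in LBRKO, and rose in QKO to 15.8 to 17.0, with an interaction of 4.95 (SE 0.35). With WT replicates 5 to 8 it counted as synergy. *Apol6*, of the apolipoprotein L family, differed in that it was lowest in TKO, at 1.32 to 1.54 CPM. Its WT libraries were at 1.95 to 2.36 CPM in replicates 1 to 4 and at 6.77 to 8.32 in replicates 5 to 8. In QKO it was at 6.73 to 7.62 CPM, above the first WT set and overlapping the second.

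Of the 117 genes in which a rise was buffered, 101 had risen in LBRKO alone, and median changes were 1.39 in LBRKO, 0.22 in TKO and -0.08 in QKO. The size of this class depends on the WT libraries used: it held 271 genes with WT replicates 1 to 4 and 216 with WT replicates 5 to 8, and 53 genes were in it every time. *Dnmt3l*, the cofactor of the de novo DNA methyltransferases (chr10:77877781-77899456), was at 18.3 to 31.9 CPM in WT and rose to 178, 168, 164 and 174 in LBRKO and 57.7, 60.1, 61.6 and 52.2 in TKO. In QKO it was at 110, 123, 109 and 107 CPM, below LBRKO and above TKO in every library. The changes of 2.88 (SE 0.10) and 1.32 (SE 0.10) would have added up to 4.20, and QKO rose by 2.28 (SE 0.10), so the interaction was -1.92 (SE 0.15, edgeR adjusted p = 6.4e-13).

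In the 6 genes named for buffered rises, the QKO change was below 0 in each, though it was called for *Wnk2* alone. *Wnk2*, a kinase that regulates ion transport, was at 2.89 to 5.17 CPM in WT, 11.3 to 15 in LBRKO, 2.96 to 3.84 in TKO and 1.11 to 2.01 in QKO, and with WT replicates 1 to 4 it counted as synergy, lower in QKO. *Pcdh1*, a protocadherin, rose in LBRKO by 2.02 (SE 0.13) and *Lrrfip1*, which binds nucleic acids, by 1.51 (SE 0.11), while their QKO changes of -0.38 (SE 0.17) and -0.42 (SE 0.13) did not pass the thresholds. *Cbln1*, a secreted organiser of synapses, was at 12.0 to 14.4 CPM in LBRKO and 2.92 to 4.18 in QKO. *Tex13b*, an X-linked gene of testis, rose in LBRKO by 2.29 (SE 0.20) and was at 0.446 to 1.04 CPM in QKO. *Oasl1*, an interferon-induced gene, was the exception in its origin, having risen in TKO to 6.66 to 8.77 CPM and being at 1.57 to 2.98 in QKO.

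Where the single changes were opposed and the interaction was called, QKO followed TKO, the line that QKO cells were made from. QKO had the sign of the TKO change in all 65 genes with an interaction above 0 and all 40 below, and it went beyond the TKO change in 58 and 30 of them. Median changes in the 65 genes were -1.66 in LBRKO, 1.53 in TKO and 2.58 in QKO, and in the 40 genes 1.46, -1.36 and -1.68. The interaction had the sign of the TKO change in all 65 genes above 0 and in 39 of the 40 below. This follows in part from the class itself, since a QKO level at or beyond TKO, with LBRKO on the other side of WT, is not a sum of the single changes. The direct difference between QKO and TKO was over 2-fold in 27 and 7 genes.

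*Zfy1*, a zinc finger gene of the Y chromosome (chrY:725128-797409), was at 0.752 to 1.37 CPM in WT, at 0.149, 0.207, 0.0637 and 0.125 in LBRKO, at 3.73, 3.68, 4.18 and 3.91 in TKO and at 10.6, 12.1, 13.2 and 12.7 in QKO. No groups overlapped, and the interaction was 4.63 (SE 0.35, edgeR adjusted p = 1.1e-13). *Adgrg6*, an adhesion G protein-coupled receptor (chr10:14278327-14421403), showed the same order, at 6.51 to 8.61 CPM in WT, 1.34 to 2.53 in LBRKO, 15.2 to 16.8 in TKO and 51.9 to 56.2 in QKO. *Cyp2b23*, a cytochrome P450, rose from a WT median of 2.40 CPM to 28.2 to 32.2 in QKO. *Trpc6*, a cation channel, and *Erv3*, a gene of retroviral origin, rose in QKO by 2.69 (SE 0.28) and 2.54 (SE 0.23). *Dcdc2a*, a doublecortin domain gene, had an interaction of 4.63 with the first WT set and 1.95 with the second, since its WT libraries spread from 0.407 to 3.47 CPM, and its QKO minus TKO difference of 0.43 (SE 0.42) was not called.

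Of the 40 opposed genes with an interaction below 0, 39 rose in LBRKO and fell in TKO. The exception, named after its values were seen, was the imprinted transporter gene *Slc38a4*, with changes of -1.41 in LBRKO, 4.30 in TKO and 1.80 in QKO. *Fosl2*, an AP-1 transcription factor (chr5:32293145-32315186), was at 6.05 to 12.6 CPM in WT, at 36.5, 34.8, 36.5 and 36.7 in LBRKO, at 2.54, 3.07, 1.83 and 2.23 in TKO and at 1.2, 1.46, 0.864 and 0.995 in QKO. *Cavin1*, which shapes caveolae (chr11:100847559-100861713), was at 47.7 to 82.9 CPM in WT, 166 to 173 in LBRKO, 28.0 to 32.5 in TKO and 14.4 to 16.6 in QKO. In both genes the 4 groups were separate, and the interactions were -3.05 (SE 0.29) and -2.36 (SE 0.18). *Misp*, which positions the mitotic spindle, had an interaction of -3.52 (SE 0.27), the same with either WT set, and fell to 0.230 to 0.682 CPM in QKO. *Dab2*, an endocytic adaptor and a marker of primitive endoderm (chr15:6329269-6470193), was at 1.02 to 1.61 CPM in WT, at 4.24, 5.40, 7.47 and 6.61 in LBRKO, at 0.562, 0.393, 0.236 and 0.365 in TKO and at 0.292, 0.230, 0.196 and 0.343 in QKO. Its QKO and TKO libraries overlapped (QKO minus TKO -0.52, SE 0.36), LBRKO stood above WT, and the interaction was -2.75 (SE 0.41, edgeR adjusted p = 1.46e-06). *Prph*, the intermediate filament protein peripherin, and *Epha1*, an ephrin receptor, had interactions of -3.41 (SE 0.30) and -2.99 (SE 0.62), and *Prph* and *Cavin1* counted as synergy with WT replicates 1 to 4.

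Seen as the effect of LBR loss with and without lamins, few genes passed the thresholds in both backgrounds. These comparisons share no libraries: LBRKO against WT, and QKO against TKO. Of the 716 genes that rose in LBRKO, 107 (14.9%) also rose in QKO against TKO and 22 (3.07%) fell, where 4.09% and 2.12% of all genes did so. Of the 761 that fell in LBRKO, 69 (9.07%) also fell in QKO against TKO, and 88 (11.6%) rose. The median change of the genes that fell in LBRKO was -1.54 there and 0 in QKO against TKO. With WT replicates 5 to 8, at like depth, 57 of 552 risen genes (10.3%) rose again and 34 (6.16%) fell, and 58 of 652 fallen genes (8.9%) fell again and 103 (15.8%) rose, where 4.31% of all genes rose and 2.23% fell.

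Of the genes that changed with lamin loss, most changed the same way when LBR was missing. Of the 628 genes that rose in TKO, 478 (76.1%) rose in QKO against LBRKO, and of the 881 that fell, 560 (63.6%) fell, where 9.72% and 8.29% of all genes did so. The medians of the genes that rose in TKO were 1.49 and 2.13. QKO cells were made from TKO cells, so that shared line differences and lamin loss cannot be told apart in this pair.

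The lists of genes by function, described by counts beside the 4.1% above and 3.4% below 0 of all genes and their median interaction of 0.02, show where called interactions gathered. Of the naive genes, 1 of 14 was called above 0 and none below, with a median of 0.16. The gene called was *Dppa3*, a maternal-effect gene, which fell in LBRKO from a WT median of 28.0 CPM to 7.11 to 16.1 and was at 16.1 to 23.1 in QKO, with an interaction of 1.00 (SE 0.28) that was 0.66 and not called with WT replicates 5 to 8. *Nanog*, *Esrrb* and *Zfp42*, transcription factors of the naive network, had values of 0.30 (SE 0.24), 0.00 (SE 0.13) and -0.01 (SE 0.20). Of 6 core genes, *Lin28a*, which blocks let-7 processing, was called at -1.47 (SE 0.19), with 274 to 297 CPM in LBRKO against 69.3 to 77.7 in QKO.

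Of 12 genes of the formative and primed epiblast, 3 were called above 0 and 1 below, with a median of 0.46, or -0.01 with WT replicates 1 to 4. *Grhl2*, a factor that opens epithelial enhancers, rose to 18.4 to 23.0 CPM in QKO from a WT median of 3.32 and 1.6 to 2.15 in LBRKO (interaction 2.35, SE 0.18). *Otx2*, a driver of the exit from the naive state, was at 2.68 to 17.4 CPM in WT, 0.405 to 0.644 in LBRKO, 17.3 to 18.0 in TKO and 5.94 to 9.59 in QKO, with an interaction of 3.66 and 1.40 by WT set. *Foxd3* was called above 0 (1.28, SE 0.31), though not with WT replicates 1 to 4 (0.77), and *Pou3f1*, which encodes OCT6, below (-1.78, SE 0.34).

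In the Nodal and TGF-beta list no receptor or SMAD was called. Of 18 genes, 3 were called above 0, *Lefty1* and *Lefty2* among them, and 1 below, the ligand *Tgfb1*, whose value of -1.0 (SE 0.15) is at the threshold and was within it with WT replicates 1 to 4. The ligand *Nodal* passed the adjusted p with 0.60 (SE 0.10), at a mean of 61.8 CPM in LBRKO and 81.5, 87.4 and 100 in WT, TKO and QKO. The receptors *Acvr1b*, *Acvr2a* and *Acvr2b* had values of -0.64 (SE 0.12), -0.12 (SE 0.14) and -0.16 (SE 0.17), and the effectors *Smad2*, *Smad3* and *Smad4* values from -0.31 to -0.14.

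Of 18 primitive endoderm genes, 6 were called below 0, *Dab2* among them, and 1 above, with a median of -0.92. The transcription factors *Gata4* and *Sox7* had values of -1.88 (SE 0.19) and -5.05 (SE 0.75), the latter at 0 to 0.0343 CPM in QKO against 0.131 to 0.407 in WT. The basement membrane genes *Col4a1*, *Col4a2* and *Lama1* had values of -2.14 (SE 0.19), -1.32 (SE 0.22) and -1.05 (SE 0.17), with *Col4a1* at 14.5 to 19.6 CPM in LBRKO and 2.30 to 3.18 in QKO. *Cubn*, an endocytic receptor, was the gene above 0 (1.92, SE 0.55). It was at 0.290 to 1.07 CPM in WT and 0.240 to 0.536 in QKO, and its QKO libraries overlapped each other group. The abundant members *Sparc* and *Lamc1* did not pass the thresholds (0.02, SE 0.11, and 0.36, SE 0.10), and the list's summed level was 1380 to 1630 CPM in WT, 1290 to 1580 in LBRKO and 1680 to 1720 in TKO and in QKO; the part of such cells in these results was not tested.

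Of 7 keratins tested, 6 were called below 0, with a median of -1.68. *Krt7*, *Krt17*, *Krt18*, *Krt19* and *Krt42* were in synergy with lower QKO RNA, and *Krt8*, the partner of *Krt18* in simple epithelia, was a buffered rise, at a mean of 30.6 CPM in WT, 65.7 in LBRKO, 27.4 in TKO and 23.0 in QKO. *Krt19* was at 5.86 to 10.2 CPM in WT and 0.309 to 0.903 in QKO. *Krt18* was at 5.93 to 8.19 CPM in LBRKO and 0.910 to 1.65 in QKO. *Krt7* lost its call in more of the alternatives than any other named gene and has a value of -1.96 (SE 0.71). *Krt14* had a mean of 0 CPM in each mutant.

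Among trophectoderm genes 2 of 12 were called above 0, *Gata3* (1.79, SE 0.36) and *Gata2* (1.14, SE 0.38), and 4 below, among them *Eomes* at -2.19 (SE 0.16). *Eomes*, a T-box factor also of mesendoderm, was at 10.2 to 12.2 CPM in LBRKO and 2.24 to 2.92 in QKO, against 6.01 to 7.40 in WT. Of 14 genes of mesendoderm and WNT ligands 3 were called below 0, *Eomes*, *Wnt6* (-1.69, SE 0.48) and *Wnt3a* (-1.55, SE 0.56, not called with WT replicates 5 to 8), and the list's median moved from -1.30 with the first WT set to 0.05 with the second. Of 12 neural genes 2 were called each way: *Nes* and *Pax6* as buffered falls, *Sox11* and *Irx3* as synergy with lower RNA. *Nes* and *Sox11* were not called with WT replicates 5 to 8, at 0.92 and -0.79. *Sox11* fell from a WT median of 23.6 CPM to 1.90 to 2.71 in TKO and 0.942 to 1.34 in QKO. The summed level of the neural list was 177 to 188 CPM in QKO, against 268 to 298 in WT, 215 to 248 in LBRKO and 231 to 238 in TKO.

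Genes that act on heterochromatin and at the nuclear envelope had no called interaction by edgeR or DESeq2. None of 21 genes of H3K9 methylation, among them the methyltransferase genes *Ehmt1* and *Ehmt2* (-0.25, SE 0.08 and 0.20, SE 0.09), was called in either direction, 5 passed an unadjusted p under 0.05 above 0 and 4 below (12.4% and 15% of all genes did), and the list's median was -0.05. The HP1 gene *Cbx3* came furthest, at -0.70 (SE 0.11). None of 16 genes of the envelope, among them *Emd*, *Tmpo*, *Sun1* and *Sun2*, was called, 2 passed the unadjusted p each way, and the median was 0.06. Of 14 genes of DNA methylation and TE silencing *Dnmt3l* alone was called. Setting 21 genes of cholesterol synthesis beside these, the pathway that LBR's reductase domain belongs to, none was called by either tool, although 14 passed the unadjusted p below 0 (15% of all genes did) and 0 above, the list's median was -0.39, and *Dhcr7*, *Idi1* and *Tm7sf2* had values of -0.91 (SE 0.11), -0.89 (SE 0.14) and -0.96 (SE 0.19), with QKO the lowest group in each.

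The remaining lists gave few called genes. Of 22 antiviral genes 3 were called below 0, *Zbp1* (-2.58, SE 0.53), *Oasl1* and *Bst2* (-1.25, SE 0.23), and none above; of 19 p53 target genes *Perp* alone was called, above 0 (1.02, SE 0.17). Of 27 imprinted genes *Cdkn1c* was called above 0 (1.12, SE 0.36, but 0.72 and not called with WT replicates 1 to 4) and 4 were called below, among them *Mest* (-1.55, SE 0.20), at 217 to 236 CPM in LBRKO and 48.5 to 52.9 in QKO, and *Peg10*, whose LBRKO libraries were at 174, 154, 365 and 409 CPM and which was not called with WT replicates 5 to 8. Of 14 germline genes 2 were called above 0, *Tdrd1* and *Slc25a31*, and *Piwil1* below (-1.35, SE 0.22). *Tdrd1* and *Slc25a31* were at 1.07 CPM or less in every library, and their QKO libraries overlapped each other group. Of 7 two-cell-like genes *Zscan4c* and *Usp17lc* were called above 0, but both were at or under 0.452 CPM in every library and 0 in most mutant libraries, and come from families that share reads. Of 6 fibroblast genes *Col1a2* was called (-2.44, SE 0.72); the list's summed level was 6.22 to 7.18 CPM in LBRKO and 2.78 to 4.75 in the other groups. None of 10 mitochondrially encoded genes was called by edgeR or DESeq2 or passed an unadjusted p under 0.05.

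By chromosome, the median interaction was -0.39 over 694 genes of chromosome 6, whose median LBRKO change was 0.36, and the other autosomes had medians from -0.06 to 0.08. The share called below 0 was 7.49% on chromosome 6 and 1.2% to 8.36% over the other autosomes, with chromosome 15 the highest. The part of the karyotypes in this was not tested. Of 6 Y-linked genes on the list *Zfy1* and *Kdm5d* were called above 0 and *Usp9y* below, the last not with WT replicates 1 to 4, and *Ddx3y*, *Eif2s3y* and *Uty* had values of 0.88 (SE 0.11), 0.81 (SE 0.15) and 0.28 (SE 0.12). By surroundings, genes of the synergy class with higher QKO RNA had a median of 9 protein-coding genes within 500 kb of them. Those with lower RNA had 16, against 13 for all genes tested. Buffered falls and both opposed classes also had a median of 9, and buffered rises 13. For genes whose highest group was under 1 CPM the median was 11 and for those at 10 CPM or more 15.

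The TE families moved in 1 direction. In QKO 291 of 1142 families rose (25.5%) and 0 fell, against 22 that rose (1.93%) and 1 that fell (0.0876%) in TKO, and 2 (0.175%) and 1 (0.0876%) in LBRKO. Set against TKO directly, QKO was higher in 63 families (5.52%) and lower in 3 (0.263%), and against LBRKO higher in 143 (12.5%) and lower in 1 (0.0876%). The interaction was called above 0 for 28 families (2.45%) and below 0 for 0, where an unadjusted p under 0.05 was reached by 1 family and DESeq2 called 27 above and 0 below. Of the 28 families 25 were synergy with higher QKO RNA, and 3 met no definition. With each WT set alone 18 of the 28 were called, and 16 of the 25 stayed in synergy. Across all families the interaction was above 0 in 984 (86.2%), with medians of 0.30 in LBRKO, 0.25 in TKO, 0.82 in QKO and 0.27 for the interaction, or 0.12 and 0.42 with the first and the second WT set. TE reads made up 12.6 ± 1.02% of counts in QKO, 9.26 ± 0.553% in TKO, 8.67 ± 0.907% in LBRKO, 7.21 ± 0.413% in WT replicates 1 to 4 and 7.98 ± 1.27% in WT replicates 5 to 8 (SD, n = 4 each).

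**Figure D4:**
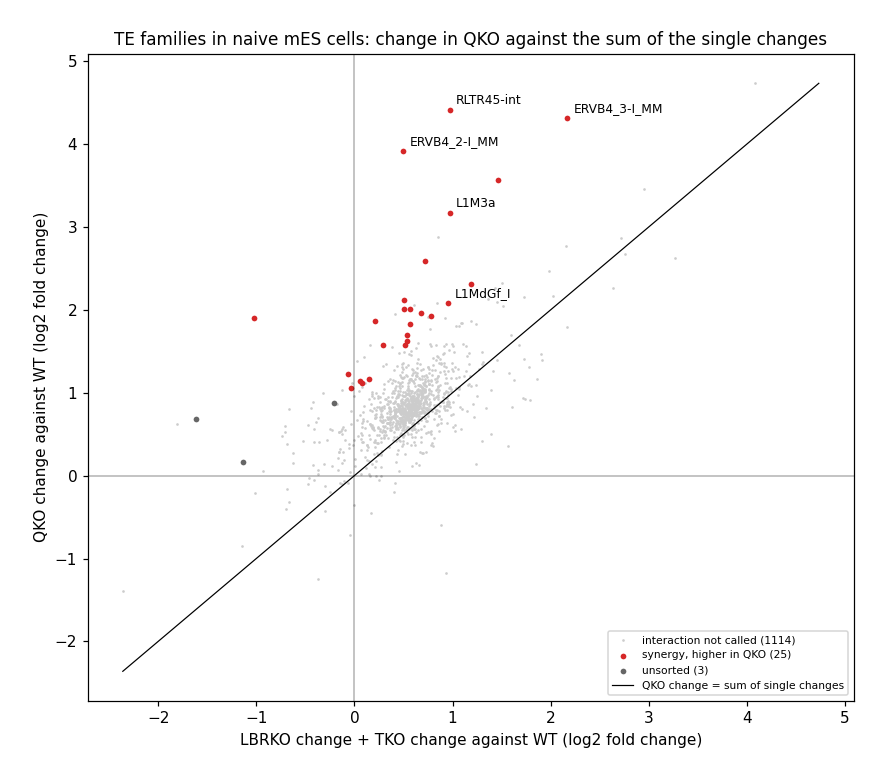
Change against WT in QKO (vertical) plotted against the sum of the LBRKO and TKO changes (horizontal) for 1142 TE families, as log2 fold change. Most of the cloud lies above the diagonal, where 984 families have an interaction above 0, and the 25 red families are those in synergy, with RLTR45-int (3.44) and ERVB4_2-I_MM (3.42) furthest above the diagonal.

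Called families were mostly ERVs of the ERVK group, the class of mouse retroviruses that includes IAP and ETn elements: 21 of 28, or 7.66% of the 274 ERVK families, beside 4 of 111 ERV1 and 3 of 147 L1 families. RLTR45-int, the internal part of an ERVK element, was at 39.5 to 63.8 CPM in WT with a median of 48.7, at 34.6, 37.2, 29.8 and 29.1 in LBRKO, at 151, 153, 167 and 162 in TKO and at 1043, 1097, 1130 and 1103 in QKO. ERVB4_2-I_MM was at 8.85 to 14.2 CPM in WT, at 5.92, 8.41, 5.47 and 6.68 in LBRKO, at 26.3, 27.1, 30.9 and 31.7 in TKO and at 164, 187, 191 and 164 in QKO. In both families the order was LBRKO, WT, TKO, QKO with no overlap, and the interactions were 3.44 (SE 0.20, edgeR adjusted p = 1.02e-16) and 3.42 (SE 0.18, edgeR adjusted p = 3.33e-18). With WT replicates 5 to 8 ERVB4_2-I_MM counted as opposed, with an interaction of 3.63.

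In the other families named by the rule QKO was again the highest group. ERVB4_3-I_MM rose from 0.385 to 0.888 CPM in WT to 11.7 to 14.1 in QKO (interaction 2.14, SE 0.39), RLTR10D2 from 3.19 to 5.42 to 24.0 to 28.2 (1.87, SE 0.25) and RLTR45, the LTR of RLTR45-int, from 10.9 to 18.5 to 49.9 to 58.5 (1.66, SE 0.16). Of 11 families named ERVB4, RLTR45 or RLTR13D6, 6 were called, with a median interaction of 1.08, while ERVB4_3-LTR_MM was at -0.32 (SE 0.43). Over all families 2.45% were called above 0, and the median was 0.27. The authors had singled out members of these groups as raised in QKO in the same libraries. That choice favours both the count and the median of the 11 families. MMERVK10D3_I, at means of 43.2, 31.3, 84.5 and 188 CPM in WT, LBRKO, TKO and QKO, MuRRS4-int, a gammaretroviral element, and ETnERV2-int were called at 1.62 (SE 0.20), 1.51 (SE 0.23) and 1.44 (SE 0.22). L1M3a, an old LINE-1 family, rose from 0.0853 to 0.904 CPM in WT to 2.85 to 6.20 in QKO (2.2, SE 0.53), with LBRKO and TKO overlapping WT. RLTR50A and RLTR46B were called at low levels, with QKO means of 0.368 and 0.315 CPM.

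**Figure D5:**
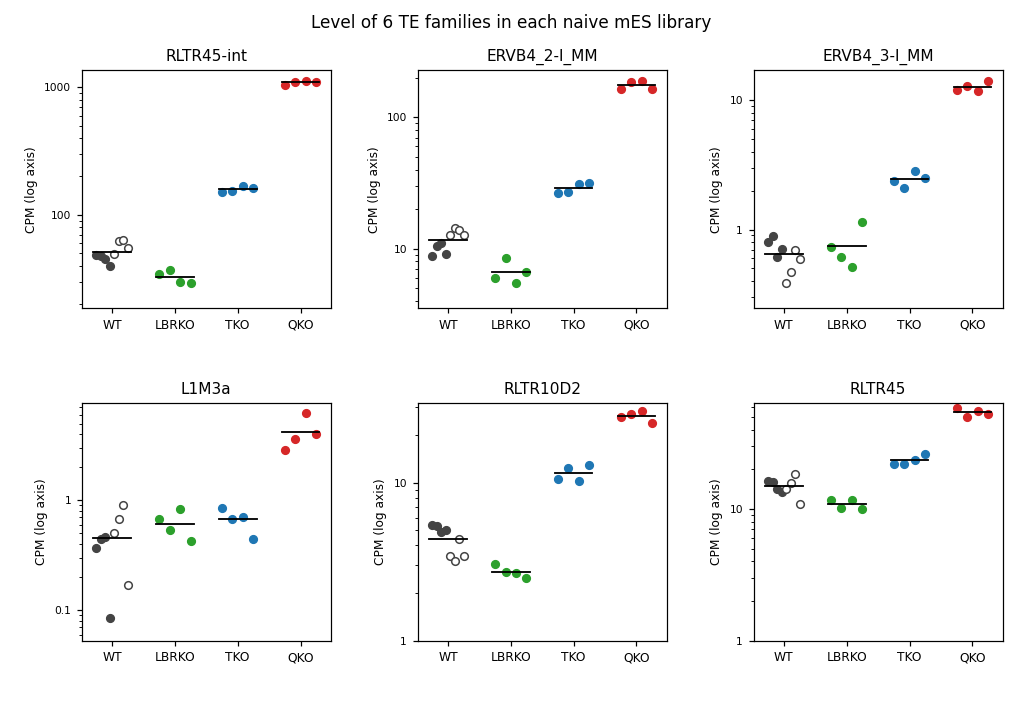
CPM (log axis) of the 6 TE families named for synergy in each naive mES library; filled WT points are replicates 1 to 4, open WT points replicates 5 to 8, and lines are group means. The 4 QKO libraries are above all others in each panel, TKO is above WT except in L1M3a, and LBRKO is at or below WT in RLTR45-int, ERVB4_2-I_MM, RLTR10D2 and RLTR45.

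Of 8 young LINE-1 families, 7 rose in QKO, 3 in TKO and 0 in LBRKO, and 2 were called for the interaction, L1MdGf_I at 1.13 (SE 0.22) and L1MdTf_I at 1.01 (SE 0.19). Neither was called with WT replicates 1 to 4, at 0.89 and 0.80. All 8 passed an unadjusted p under 0.05 above 0, as did 15.1% of all families, and L1MdTf_II and L1MdTf_III were just within 2-fold, at 0.98 (SE 0.22) and 1.00 (SE 0.19). Mean levels of L1MdTf_I were 467 CPM in WT, 333 in LBRKO, 727 in TKO and 1044 in QKO. L1MdA_I, the family with the largest rise of the 8, was raised by 3.07 in TKO and 3.46 in QKO, an interaction of 0.51 (SE 0.23) that did not pass the adjusted p. MMERGLN-int, a gammaretroviral element, rose by 4.48 in TKO and 4.73 in QKO, with an interaction of 0.65 (SE 0.33) that was not called. Of 25 IAP families 15 rose in QKO and 1, IAP1-MM_I, was called for the interaction (1.28, SE 0.19), of 5 ETn and MusD families 1, and of 3 MERVL, 12 SINE, 7 satellite and 21 older LINE-1 families 0. The medians of these last 4 lists ran from 0.25 to 0.49, beside 0.27 for all families, DESeq2 called 0 in each, and 2, 2, 1 and 3 families passed the unadjusted p above 0.

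Reads with a single alignment were counted per copy. Summed per family over copies that overlap no gene span, 905 families could be tested, of which 58 (6.41%) were called above 0 and 0 below, with a median interaction of 0.47. Of 27 of the 28 called families that could be tested there, all were above 0 and 20 were called. MuRRS4-int was among those not called, at 0.66 (SE 0.36). At copies at least 10 kb from any gene, 109 of 709 families were called above 0 (15.4%) and 0 below, with a median of 0.72. Over all copies, inside genes too, 25 were called above 0 and 1 below.

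In epiblast-like cells (EpiLCs), differentiated for 48 h from the same lines, the interaction was called in the same direction for 303 of the 959 genes above 0 (31.6%, where 5.09% of all genes were called above 0) and 196 of the 796 below 0 (24.6%, where 2.96% were), and for 7 of the 28 TE families (25%, where 3.94% were). The difference between the stages was itself called for 228 and 278 of these genes (4.14% of all), a count that their choice by the mES value favours, among them *Lefty1* and *Lefty2*, whose EpiLC interactions were 0.29 and 0.63, and *Eomes*, which was at -2.19 in mES cells and 1.69 in EpiLCs.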

How the data were processed

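The authors deposited raw counts per gene and per TE family for each library (cutadapt 2.5, STAR 2.7.10a, GRCm39 with GENCODE annotation, TEcount with up to 100 alignments per read) and raw counts per TE copy from reads with a single alignment (featureCounts 1.6.4). Total RNA had been depleted of rRNA with a stranded kit; how strand was set in the counting is not given in the sources used here. Overlapping and antisense genes and multigene families are therefore uncertain. Groups came from the sample titles.

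From these counts the interaction was fitted with edgeR 4.0.16 in R 4.3.3 (TMM scaling, filterByExpr over 8 groups, all 40 libraries, 1 mean per group, quasi-likelihood test). TE families were fitted with the genes and adjusted over families alone. CPM values use the library totals after scaling. Called means an adjusted p under 0.05 and over 2-fold. Opposed genes were set aside first, then synergy, then buffering. Positions and gene types came from GENCODE on GRCm39.

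Genes were named by rule: the 4 marker genes, the 4 targeted genes, up to 4 called members of each list by size, and per class the 6 largest interactions called with each WT set and at 5 CPM or more in the highest group (1 CPM for TE families); other list members and TE families were named after their values were seen. Some items that the rule names are not reported here. The members and lists were chosen with earlier results of these data known. Library totals ran from 24.5 to 48.0 M counts in the 20 mES libraries.

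On simulated counts of this design, 97% of 100 genes changed by 2 and 100% of 100 changed by 3 on the log2 scale were called among 22961, and 6 of 22761 unchanged genes. No libraries were duplicates. Replicate numbers were not used to pair the samples in the main fit. DESeq2 1.42.0, other scalings, filters, thresholds, library subsets and a replicate block were alternatives.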

Additional observations from a re-analysis of the deposited data

Results flagged for a closer look

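Of 336 groups of libraries checked for 1 library apart from the rest, 20 (5.95%) held one, where chance gives about 5%. Among genes with an interaction above 0 these were *Platr15* in LBRKO replicate 3 (0.467 CPM) and QKO replicate 2 (27.8), *Dppa3* in TKO replicate 1 (27.6), *Foxd3* in WT replicate 7 (32.3), *Pax6* in LBRKO replicate 1 (0.107) and *Nes* in TKO replicate 1 (56.7). *Zscan4c* in LBRKO replicate 2 (0.0460 CPM) and QKO replicate 3 (0.118) and *Usp17lc* in LBRKO replicate 4 (0.0250) were each the 1 library above 0 in its group. Among genes with an interaction below 0 these were *Zfp467* in LBRKO replicate 4 (16.0 CPM), *Plxdc1* in LBRKO replicate 1 (16.9), *Pcdh1* in LBRKO replicate 3 (8.76), *Fosl2* in LBRKO replicate 2 (34.8), *Pou3f1* in QKO replicate 4 (0.858), *Hand1* in QKO replicate 4 (0.0343), *Wnt6* in LBRKO replicate 3 (1.99), *Sox11* in QKO replicate 4 (1.34) and *Bst2* in TKO replicate 1 (16.9). Of the targeted genes, *Lmnb1* in LBRKO replicate 4 (499 CPM) and *Lmnb2* in QKO replicate 3 (3.77) stood apart.

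The mES interaction minus the EpiLC interaction, tested in the same edgeR model, was called for 34 named genes and 2 TE families. Over all features it was called for 4.14% of genes and 0.263% of TE families. Most were named for a large or called mES interaction, which favours these counts. It was above 0 for *Lefty2* (6.51), *Lefty1* (6.28), *Tmem132d* (4.88), *Trpc6* (3.50), *Pax6* (2.86), *Aass* (2.76), *Aurkc* (2.69), *Erv3* (2.00), *Tdrd1* (1.92), *Grhl2* (1.73) and *Cyp2b23* (1.36), and for RLTR45-int (2.75) and ERVB4_2-I_MM (2.37).

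It was below 0 for the matrix gene *Tgfbi* (-3.90), the T-box gene *Eomes* (-3.88), *Zfp467* (-3.52), *Cavin1* (-3.19), *Sox7* (-3.12), *Fosl2* (-2.78), *Prph* (-2.70), *Misp* (-2.67), *Wnt6* (-2.47), *Plxdc1* (-2.14), *Zbp1* (-2.14), *Nnat* (-2.10), *Pcdh1* (-2.09), *Lrrfip1* (-1.97), *Crb3* (-1.88), *Tgfb1* (-1.65), *Pou3f1* (-1.38), *Cbln1* (-1.22), *Wnk2* (-1.18) and *Dnmt3l* (-1.07). The keratins *Krt19* (-3.54), *Krt17* (-2.89) and *Krt18* (-1.01) went the same way.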

How the results depend on the processing

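Across all alternatives run, the counts over genes stayed within 1.5 times except as follows, and no called interaction of a named gene or family turned its direction. With 1 WT set the medians of several lists changed sign. Among them were the formative list (-0.01, from 0.46), the mesendoderm list (0.05, from -0.06) and the core list (-0.11, from 0.01). The germline list (-0.07, from 0.13), the H3K9 list (0.05, from -0.05) and the DNA methylation list (0.02, from -0.06) did so too. With 1.5-fold thresholds there were 1476 gene interactions below 0, 752 genes in synergy with lower QKO RNA, 282 buffered rises, 139 and 152 opposed genes above and below 0, 60 TE interactions above 0, 52 TE families in synergy, 3 buffered TE falls and 3 opposed TE families. Buffered rises numbered 271 with WT replicates 1 to 4, 216 with WT replicates 5 to 8 and 274 with a replicate block. WT replicates 1 to 4 gave 1 buffered TE fall, as did the 20 mES libraries alone, and WT replicates 5 to 8 gave 1 opposed TE family. LBRKO replicates 1 and 2 alone gave 26 opposed genes below 0. Copies at least 10 kb from genes gave 109 TE interactions above 0. Leaving out each library gave 910 to 977 gene interactions above 0, 722 to 816 below, and 19 to 31 for TE families, the lowest without WT replicate 7. Gene counts above and below 0 were 979 and 775 with RLE scaling, 872 and 828 without a filter, and 1050 and 802 with DESeq2.

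Replicate numbers are shared between groups, but of 24 same-numbered pairs 7 had correlated deviations over 0.1 (range -0.434 to 0.354) and 8 correlated best with their own number. The replicate block gave 1078 gene interactions above 0 and 897 below, 26 TE families above 0 and 2 below, and 2 buffered TE rises and 1 buffered TE fall.

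The 35 genes reported for the classes and the 6 named TE families kept their called interaction in every alternative. A call with each WT set was part of the rule that named them, and the choice of the largest interactions favours the rest. Among list members *Krt7*, *Wnt3a*, *Peg10*, *Tgfb1*, *Dppa3*, *Usp9y*, *Hand1* and *Usp17lc* lost it most often, in 18, 17, 17, 16, 13, 13, 11 and 11 alternatives. With LBRKO means under 0.1 CPM, folds of 87 genes in synergy with higher RNA and 84 buffered falls rest on few reads.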
